A study of Mus musculus with 68 samples.

Results

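In untreated mouse embryonic fibroblasts (MEFs), 725 of 12571 autosomal genes (5.77%) had both control libraries of strain 129 outside all 16 control libraries of the 7 other founder strains of the Collaborative Cross. Of these, 457 were higher in strain 129 (3.64% of all genes) and 268 were lower (2.13%), and they are called the outlying genes below. They were chosen by that rule on the control values themselves, so the control differences are a description and carry no test. The genes with the largest excess were Il1a, Saa3, Shh, Sprr2b and Phyhip, and those with the largest deficit that rested on more than a few reads were Kazald1, Rab3b, Slc1a5, Prg4 and Comp. Applied to each of the other strains in turn, the same rule gave 350 genes for NOD, 457 for A, 473 for NZO, 605 for B6, 887 for WSB, 1424 for PWK and 1506 for CAST. A and PWK have 3 control libraries and the others 2, and a rule over 3 libraries is the stricter, so these numbers are not on an equal footing.

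Fibroblasts make and remodel the extracellular matrix, and they also act as sentinels: interleukin 1 and bacterial products switch on their NF-kB and AP-1 transcription factors, which drive transcription of interleukin 6, chemokines, acute phase proteins and matrix metalloproteases. Interleukin 1 alpha can act on the cell that makes it, through the interleukin 1 receptor. A MEF culture is a mixture of mesenchymal cells from most of the embryo, including precursors of cartilage, tendon, fat and dermis.

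The strains were 129S1Sv/ImJ (129), A/J (A), C57BL/6J (B6), NOD/ShiLtJ (NOD), NZO/H1LtJ (NZO), CAST/EiJ (CAST), PWK/PhJ (PWK) and WSB/EiJ (WSB), and the F1 crosses had a B6 mother and a 129, NOD, NZO, CAST or WSB father (x129, xNOD, xNZO, xCAST, xWSB). Primary MEFs, thawed at passage 3 or 4, were given 0.1% DMSO (control) or 2 ug/ml of tunicamycin (TM, a blocker of protein glycosylation that causes ER stress) for 4 h, and poly(A) RNA was sequenced. Each strain is 1 pool of cells from several female embryos of a single litter, so that the genotype of 129 and the history of its MEF stock cannot be told apart in the founder libraries, and the replicates measure the spread between cultures of a stock. The embryos' age is not given in the labels. The rule used 2 control libraries of 129 and 16 of the others. Libraries that it did not use were the TM libraries (3 of 129 and 19 of the others), which came from the same stocks, and the F1 libraries (3 of x129 and 11 of the other crosses for each treatment), which came from other embryos that carry a single 129 genome.

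Values are scaled reads, the reads of a gene in a library after the authors' TMM scaling to a common library total, not divided by gene length, so levels are compared between libraries and not between genes. Founder control libraries held 7091923 to 21530282 reads and the 129 controls 17040896 and 12046443. All 10 fibroblast markers were listed, none was an outlying gene, and their summed level was 24840 and 25610 scaled reads in the 129 controls against 19940 to 54700 in the others. Y-linked genes summed to 24.6 and 29.2 scaled reads in the 129 controls, below the other controls (33.9 to 124.9), in cells described as female. The other libraries of the same strain correlated at 0.961 or above with each founder control, whereas in the F1 controls xNZO control replicate 3 correlated at 0.931 with the other xNZO controls, which had a correlation of up to 0.988 with other crosses, and xWSB controls stood apart from the other crosses in Il1a, Saa3 and Il6. Among the founders, WSB control replicate 3 correlated at 0.961 with the other WSB control and at up to 0.966 with other strains. The counts of outlying genes called the same way in F1 libraries are also given without xWSB and, in controls, without xNZO control replicate 3. Opposite calls are also given without xWSB, and most other F1 counts are given over all libraries only.

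**Figure D1:**
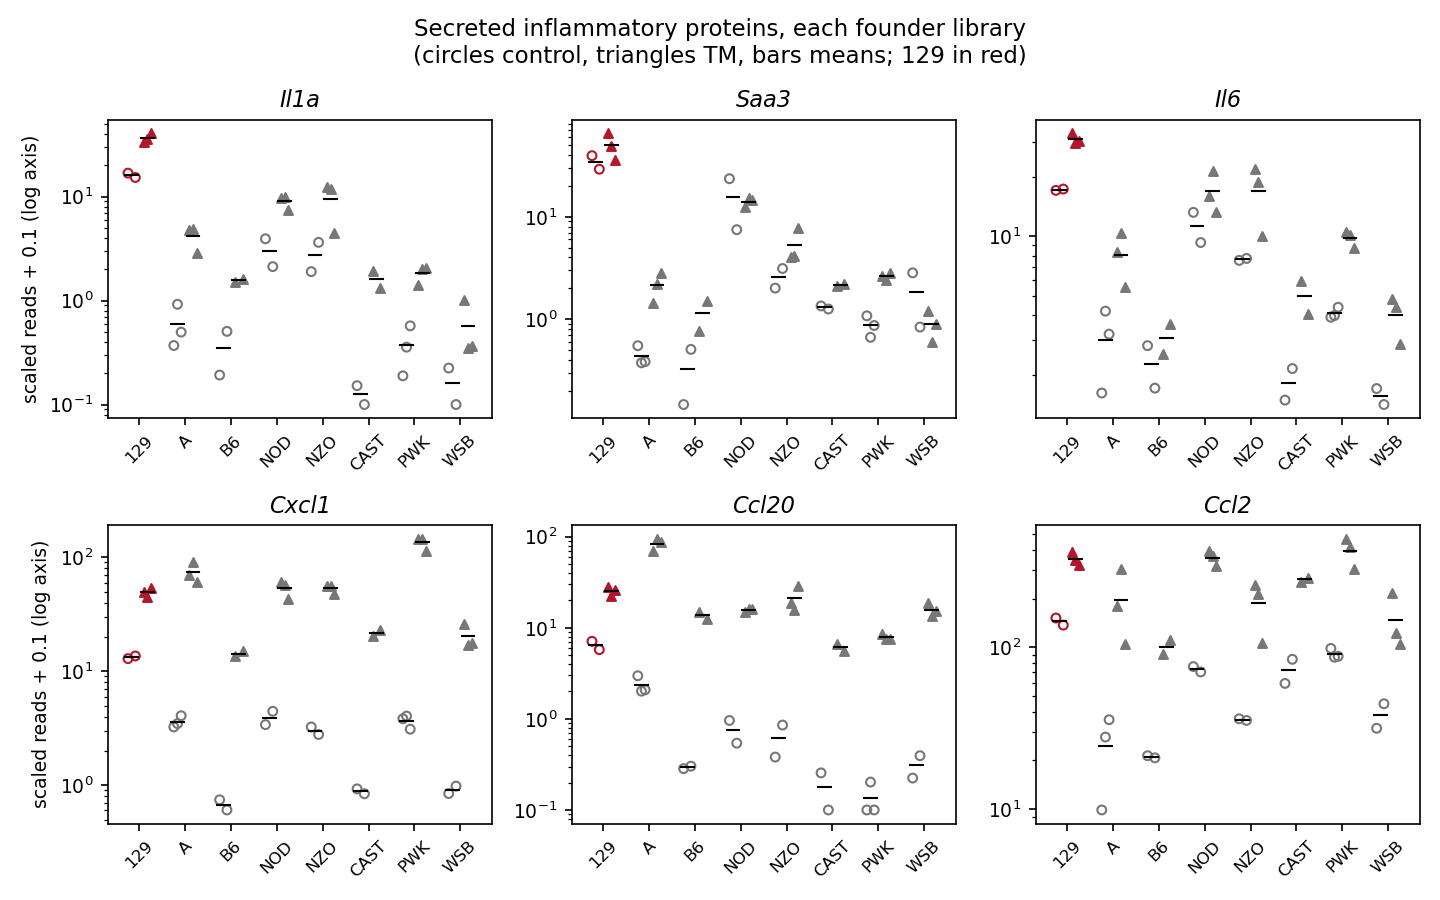
Scaled reads plus 0.1 (log axis) of Il1a, Saa3, Il6, Cxcl1, Ccl20 and Ccl2 in every founder library, by strain. Circles are controls, triangles are TM libraries, bars are means and strain 129 is in red. Both 129 controls lie above every other control in each panel, and in TM libraries 129 remains apart for Il1a, Saa3 and Il6 while Cxcl1, Ccl20 and Ccl2 overlap with other strains.

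Cytokines, chemokines and an acute phase protein led the genes that were higher in strain 129. Of 26 chemokine and cytokine genes listed in the founder tables, 8 were outlying and higher (Il1a, Il6, Ccl20, Cxcl1, Ccl2, Ccl7, Cxcl16 and Cxcl12) and 0 were lower. The median log2 difference was 0.98 in controls over the 24 of the 26 that passed the filter on low values, where the median over all genes was 0.00. Promoters of 4 of the 8 outlying genes, and of 2 further higher genes described below, are shown. They were picked because each holds a match to a motif of NF-kB or AP-1, the factors through which fibroblasts answer interleukin 1. These promoters therefore do not stand for the higher genes as a set, whose shares are given below. Each is the 150 bases before the RefSeq start of the gene (GRCm38.p6, 5′ to 3′ on the strand of the gene), and capitals mark the matches to the kappa B motif (GGG, any 2 bases, then TTTCC) in the first 3 and to the AP-1 motif TGANTCA in the last 3, on either strand.
Cxcl1, chr5:90891095-90891244, plus strand: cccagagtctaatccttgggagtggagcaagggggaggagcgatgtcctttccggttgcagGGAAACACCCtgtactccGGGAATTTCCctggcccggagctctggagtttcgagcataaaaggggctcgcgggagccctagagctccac
Il6, chr5:30012964-30013113, plus strand: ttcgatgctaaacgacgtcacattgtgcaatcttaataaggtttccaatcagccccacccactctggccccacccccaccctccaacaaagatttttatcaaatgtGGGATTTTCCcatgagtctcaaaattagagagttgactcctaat
Ccl20, chr1:83116616-83116765, plus strand: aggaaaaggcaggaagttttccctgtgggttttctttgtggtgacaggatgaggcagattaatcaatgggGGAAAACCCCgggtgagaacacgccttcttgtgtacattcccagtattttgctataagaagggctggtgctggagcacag
Il1a, chr2:129309973-129310122, minus strand: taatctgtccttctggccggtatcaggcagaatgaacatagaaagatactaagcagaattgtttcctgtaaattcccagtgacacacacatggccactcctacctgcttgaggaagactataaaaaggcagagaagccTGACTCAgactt
Mmp10, chr9:7502192-7502341, plus strand: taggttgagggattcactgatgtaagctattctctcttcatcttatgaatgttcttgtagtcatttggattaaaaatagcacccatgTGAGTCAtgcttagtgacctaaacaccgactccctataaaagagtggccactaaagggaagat
Ivl, chr3:92573736-92573885, minus strand: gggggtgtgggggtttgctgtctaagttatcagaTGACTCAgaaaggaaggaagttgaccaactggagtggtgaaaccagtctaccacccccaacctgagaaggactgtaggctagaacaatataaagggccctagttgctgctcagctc

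Cxcl1 holds a pair of kappa B matches, which begin 89 and 71 bases before the start, while Il6 and Ccl20 hold a match each. Over the windows that reach from 250 bases before to 50 bases after each start, kappa B matches were in 2.1% of the 333 higher genes that had a window, 1.38% of the 218 lower genes, 2.08% of the other autosomal genes listed and 1.63% of all 32851 windows. AP-1 matches were in 10.5% of the higher genes, 5.5% of the lower genes, 6.42% of the other autosomal genes listed and 7.81% of all windows. These motifs were searched after the values were seen and the shares carry no test.

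Il1a, which encodes interleukin 1 alpha (chr2:129299610-129309972), had 16.7 and 15.2 scaled reads in the 129 controls. The other 16 controls ran from 0 to 3.82 with a median of 0.333. The control difference was 4.99 on the log2(value + 0.1) scale, the largest of all the outlying genes. In the TM libraries, 129 had 33.5, 35.8 and 40.6 scaled reads, and the other 19 libraries ran from 0.247 to 12.2 with a median of 1.96. No TM library of another strain reached those of 129, and the difference was 3.84 ± 0.29 (log2, SE; adjusted p = 2.43e-08, limma).

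Saa3, serum amyloid A3, an acute phase protein (chr7:46711998-46715700), had 39.5 and 29.1 scaled reads in the 129 controls. The other controls ran from 0.046 to 23.5 with a median of 0.87, and the nearest strain was NOD, whose 2 controls had a mean of 15.4 ± 11.4 (SD). The difference was 4.70 in controls. Under TM, 129 had 65.6, 49.2 and 36.2 against 0.494 to 15.1 elsewhere, with no overlap and a log2 difference of 4.24 ± 0.25 (adjusted p = 7.29e-10, limma).

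Il6, the acute phase cytokine interleukin 6 (chr5:30013114-30019981), had 16.9 and 17.2 scaled reads in the 129 controls and 1.32 to 13.1 in the others, with a median of 3.47. The control difference was 2.31. In TM libraries, 129 had 33.0, 29.3 and 30.3 and the others 2.45 to 21.6. The groups again did not overlap, and the difference was 2.07 ± 0.22 (log2, SE; adjusted p = 1.47e-06, limma).

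The chemokines behaved less evenly across the treatments. Ccl20, which attracts lymphocytes and dendritic cells that carry CCR6, had 7.003 and 5.65 scaled reads in the 129 controls against 0 to 2.87 elsewhere, a log2 difference of 3.99. After TM, its 28.2, 22.3 and 26.1 in 129 lay within the range of the others, 5.43 to 95.1 with a median of 15.1, and the difference was 0.67 ± 0.15 (adjusted p = 0.00301, limma). Cxcl1, a neutrophil attractant, had 12.8 and 13.5 in the 129 controls and 0.506 to 4.35 in the others, a log2 difference of 2.82. With TM it had 49.4, 44.7 and 53.2 in 129 and 13.4 to 145.6 elsewhere, so the groups overlapped and the difference of 0.29 ± 0.14 did not pass the test (adjusted p = 0.148, limma). Whether the strain difference changed with treatment was not tested.

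Ccl2 and Ccl7, neighbouring genes on chromosome 11 for attractants of monocytes, were higher by 1.73 and 1.21 (log2) in the 129 controls. Ccl2 had 151.7 and 137.1 scaled reads there against 9.79 to 98.4 elsewhere. In TM libraries Ccl7 passed the test with 1.06 ± 0.16 (adjusted p = 7.31e-05, limma) and Ccl2 had a difference of 0.77 ± 0.25 (adjusted p = 0.0415, limma). Cxcl16, which carries a transmembrane form as well as a soluble one, was higher by 1.54 in controls and by 0.81 ± 0.17 with TM (adjusted p = 0.00234, limma). Cxcl12, the CXCR4 ligand that stromal cells secrete, was higher by 1.00 and 0.99 ± 0.10 (adjusted p = 1.3e-06, limma) and its 129 libraries stayed above all others under TM. In all, 10 of the 26 chemokine and cytokine genes were called higher in 129 TM libraries and 4 lower, where 4.45% and 4.15% of all genes were. The 4 lower ones were Ccl9, Tnf, Il1b and Cxcl2, none of which was an outlying gene in controls.

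Genes that receive and regulate inflammatory signals were outlying in smaller numbers. Of 13 genes of the NF-kB system, Tnfaip3 (72.0 and 81.4 scaled reads against 23.1 to 52.4) and Nfkbiz (54.1 and 55.7 against 22.8 to 42.7) were outlying and higher, by 1.16 and 0.67 on the log2 scale. Neither passed the test in TM libraries, at -0.06 ± 0.12 (adjusted p = 0.739, limma) and 0.39 ± 0.11 (adjusted p = 0.0163, limma). Of 15 genes for Toll-like receptors and inflammasomes, Tlr2 was higher by 1.15 and Tlr6 lower by 1.78, the latter on 12 reads in all in the 129 controls. Casp4, the receptor of intracellular lipopolysaccharide for which the 129 lineage carries a known loss-of-function allele, did not meet the rule. It had 0.0574 and 0 scaled reads in the 129 controls against 0 to 1.12 elsewhere, and it was called lower in TM libraries (-0.97 on the log2 scale, adjusted p = 0.00172, limma). The 34 interferon-stimulated genes included 0 outlying genes in either direction, with a median difference of 0.17. In TM libraries 4 of the 34 were called higher (Ifi44, Irgm1, Ifi27 and Ifi204) and 0 lower, where 4.45% and 4.15% of all genes were. Of the 13 NF-kB genes, 0 were called higher there and 2 lower (Relb and Nfkbie). Of the 15 Toll-like receptor and inflammasome genes, 0 were called higher and 2 lower (Nlrp3 and Casp4).

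Macrophages also make these cytokines, and their markers summed to 19.5 and 18.0 scaled reads over 10 listed genes in the 129 controls, within the range of the other controls (8.82 to 69.8, median 34.0). Of them, Ptprc was outlying and lower, Tyrobp was at 0 in both 129 controls, and Adgre1 was at 0.115 and 0. Of 6 endothelial markers Kdr was outlying and higher, by 1.47, and their sum of 18.4 and 18.6 scaled reads lay within the range of the other controls (3.68 to 25.3). The markers of skeletal muscle, smooth muscle and bone included 0 outlying genes.

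Some matrix proteases were among the higher genes. Of 18 listed proteases and inhibitors, Mmp9, Mmp10 and Serpinf1 were outlying and higher and 0 were lower, with a median of -0.08 over the list. Mmp10, stromelysin 2, which holds the AP-1 match 63 bases before its start, had 14.1 and 17.8 scaled reads in the 129 controls against 0.819 to 5.64. Its difference was 2.92 in controls and 2.49 ± 0.18 in TM libraries (adjusted p = 1.61e-08, limma), without overlap. In F1 TM libraries Mmp10 was called lower in x129, and that call was lost without xWSB (-0.25, adjusted p = 0.351, limma). Mmp9, gelatinase B, had 34.0 and 33.3 against 1.91 to 14.2, a difference of 2.70, and 1.39 ± 0.10 with TM (adjusted p = 1.33e-08, limma), where other strains overlapped with it. Of 37 matrix proteins only Tnc, tenascin C, a matrix protein of remodelled tissue, was outlying, with 7220 and 8381 scaled reads in the 129 controls against 987.3 to 5602, and it was called higher under TM as well (0.90 ± 0.18, adjusted p = 0.00125, limma). Olr1, a scavenger receptor for oxidised lipoprotein, was higher by 3.06, from a median of 6.58 elsewhere to 84.3 and 92.2, and by 2.84 ± 0.20 with TM (adjusted p = 1.02e-08, limma).

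Genes of the cornified envelope, the protein shell of terminally differentiated keratinocytes, stood higher together. Sprr2b, Lce1l and Kprp were among the largest differences, and the group was then extended, after these values were seen, to the 14 listed genes of epidermal differentiation. Of the 14, 5 were outlying and higher (Crct1, Lce1l, Ivl, Sprr2b and Kprp) and 0 lower, where 3.64% and 2.13% of all genes were. The median difference was 1.89 in controls and 2.19 in TM libraries. With TM, 9 were called higher and 0 lower, where 4.45% and 4.15% of all genes were. In F1 controls 4 of the 12 tested were called higher in x129 and 0 lower, where 1.37% and 2.52% of all genes were. The counts were the same in F1 TM libraries, where 2.86% and 2.98% of all genes were called. Crct1 had 79.8 and 80.6 scaled reads in the 129 controls against 3.65 to 29.0. Ivl, involucrin, whose AP-1 match begins 116 bases before the start, had 9.36 and 9.83 against 0.104 to 6.92, and with TM its difference was 2.61 ± 0.20 (adjusted p = 2.49e-08, limma). Sprr2b had 2.98 and 2.87 and was at 0.454 or below in every other control, so it passed the filter on low values only through the 129 controls. Several of these genes lie side by side: Kprp, Lce1l and Crct1 fall within chr3:92823074-93015687. Genes of the Sprr and Lce families resemble each other in sequence, and how reads were split between copies is not given in the sources used here. Of the epithelial markers, Epcam and Krt5 were not listed, and 0 of the 5 listed were outlying. The 5 summed to 36.2 and 32.1 scaled reads in the 129 controls and 37.1 to 132.1 in the others. Their median difference was -1.31 in controls, and Krt8 and Krt18 had -2.20 and -1.87. Which cells made the RNA of the cornified envelope genes was not tested.

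The higher genes also included Shh, Sox2 and Ncan, known from development and the nervous system. Shh, the morphogen sonic hedgehog (chr5:28456815-28467256), had 4.88 and 5.49 scaled reads in the 129 controls, a median of 0.0738 in the others and a highest value of 3.19. The difference was 4.49, and 3.97 ± 0.44 in TM libraries (adjusted p = 2.2e-06, limma), where 129 again lay above all other libraries. Sox2, a transcription factor of neural and other progenitors, had 7.41 and 9.09 against 0.147 to 4.996, and Ncan, the brain proteoglycan neurocan, had 7.35 and 6.71 against 0.189 to 2.53. Of the 6 autosomal neural and glial markers listed, only Sox2 was outlying. In TM libraries 3 of the 6 (Gfap, Sox10 and Sox2) were called higher and 2 (Nes and S100b) lower, with a median of 0.72. The sum of all 7 listed markers, not restricted to autosomes, was 342.1 and 381.8 in the 129 controls. That lay within the range of the other controls (210.4 to 1956). Of 58 Hox and positional genes, Twist2 and Hoxb5 were outlying and higher, by 1.03 and 1.08, and Tbx3 lower by 0.56, and the median over the list was -0.17. The limma test of the control contrast, on the values the rule used, called 3 of the 58 higher and 9 lower, where 3.36% and 2.78% of all genes were called. In TM libraries 9 were called higher and 6 lower, where 4.45% and 4.15% of all genes were. In F1 controls 8 of 57 were called higher in x129 and 4 lower, where 1.37% and 2.52% of all genes were. Tbx4, Hoxd13, Hoxa13, Hoxd11 and Hoxd10 were called lower in 129 controls, on the values the rule used, and higher in x129 controls. None of these was an outlying gene, and of them only Tbx4 and Hoxd13 were called lower in 129 TM libraries. Their F1 calls are given over all crosses only.

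A further set had no shared function. Ppm1k, the mitochondrial phosphatase that activates breakdown of branched-chain amino acids (chr6:57506502-57535468), had 65.4 and 54.2 scaled reads in the 129 controls, and no other control was above 7.54. Its difference was 3.85, and 2.94 ± 0.28 with TM (adjusted p = 4.15e-07, limma), where the 129 libraries had 27.0, 15.8 and 56.4. Fxyd6, a regulator of the sodium pump (chr9:45370185-45396159), had 39.8 and 36.0 against 0.294 to 7.97, a difference of 3.32, and 3.40 ± 0.16 with TM (adjusted p = 5.37e-11, limma). Phyhip had 5.63 and 7.21 against 0.0478 to 0.745, and Slc7a11, the cystine transporter that feeds glutathione synthesis, 64.9 and 57.9 against 6.69 to 55.9. Phyhip kept its difference with TM (4.77 ± 0.47, adjusted p = 6.82e-07, limma), and Slc7a11 had 0.70 ± 0.21 (adjusted p = 0.024, limma). Of 44 glutathione and antioxidant genes, Slc7a11 and Prdx6, a peroxiredoxin, were outlying, and the median over the list was 0.08. H2-T22, a nonclassical MHC class I gene, was the 1 outlying gene of 12 in its class, at 52.0 and 47.7 against 1.53 to 36.6, where B6 was the nearest strain. H2-T22, Gm7030, Ifi27l2b and Rps13-ps1, all among the 15 largest differences or on a list, have close copies in the genome, and their values are uncertain where reads could be shared.

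**Figure D2:**
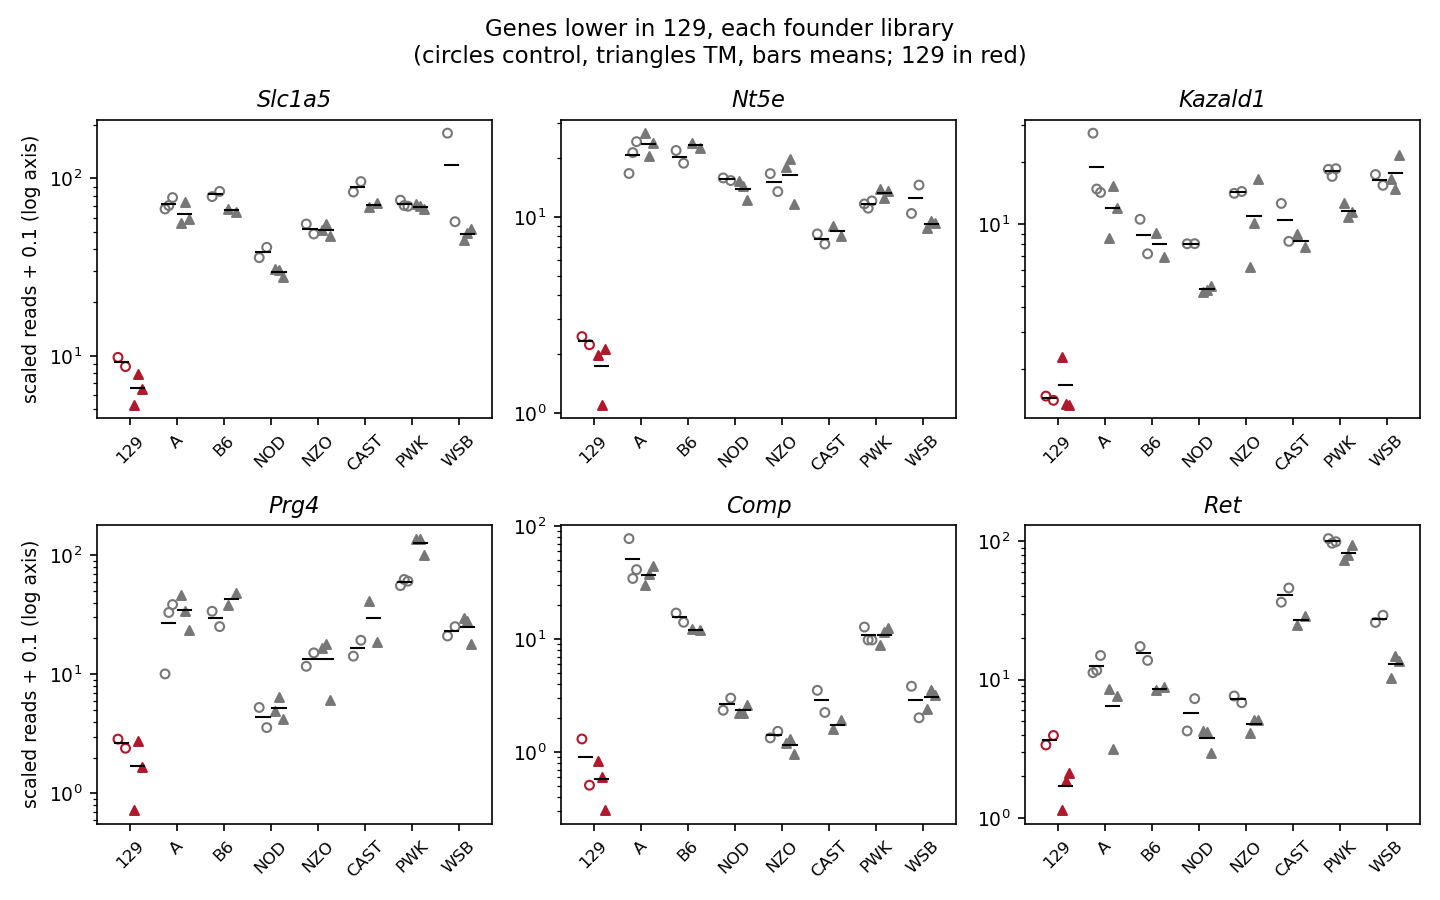
Scaled reads plus 0.1 (log axis) of Slc1a5, Nt5e, Kazald1, Prg4, Comp and Ret in every founder library, by strain, with circles for controls, triangles for TM libraries, bars for means and strain 129 in red. Both 129 controls lie below every other control in each panel, and in the TM libraries the same holds for all 6 genes.

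The genes lower in strain 129 included several that encode proteins of joint and cartilage matrix. Prg4, lubricin, which coats joint surfaces (chr1:150449412-150466165), had 2.75 and 2.29 scaled reads in the 129 controls against 3.47 to 62.3, with a median of 22.9. The lowest of the other controls were those of NOD, at 5.16 and 3.47. Under TM Prg4 had 0.626, 2.64 and 1.56 in 129 against 4.12 to 137.5, with no overlap and a difference of -4.11 ± 0.34 (log2, SE; adjusted p = 5.63e-08, limma). Comp, cartilage oligomeric matrix protein (chr8:70373558-70382066), had 1.21 and 0.409 against 1.24 to 77.3, a difference of -2.84, and -3.19 ± 0.21 under TM (adjusted p = 4.22e-09, limma). Acan, aggrecan, the main proteoglycan of cartilage, had 2.53 and 2.46 against 4.36 to 54.97, and Itga11, a collagen receptor of fibroblasts, had 38.1 and 32.0 against 49.1 to 344.8. Both were called lower in TM libraries, Acan by -1.99 ± 0.29 (adjusted p = 6.89e-05, limma) and Itga11 by -2.30 ± 0.20 (adjusted p = 1.47e-07, limma). Of the 4 cartilage markers listed, Acan and Comp were outlying, and the sum of the 4 was 143.4 and 139.7 in the 129 controls against 59.1 to 682, within the range of the others. In these bulk samples, fewer cells of a type and less RNA per cell cannot be told apart.

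Slc1a5, a glutamine transporter (chr7:16781340-16798274), had 9.70 and 8.60 scaled reads in the 129 controls, and the other controls ran from 35.7 to 179.8 with a median of 70.2. In TM libraries, 129 had 5.21, 7.80 and 6.44 against 27.7 to 73.7. The groups were far apart in both treatments, by -2.91 in controls and by -3.08 ± 0.10 with TM (adjusted p = 3.84e-13, limma). Nt5e, the ectoenzyme CD73 that makes adenosine from AMP, had 2.35 and 2.13 against 7.17 to 24.04, a difference of -2.58. With TM it had 1.88, 1.01 and 2.02 against 7.84 to 26.6, a difference of -3.10 ± 0.17 (adjusted p = 2.25e-10, limma). Kazald1, a secreted protein with a Kazal domain, had 1.38 and 1.31 against 7.09 to 27.4 and was lower by 2.58 ± 0.22 on the log2 scale with TM (adjusted p = 1e-07, limma). Ret, the receptor tyrosine kinase of the GDNF family ligands, had 3.27 and 3.85 against 4.16 to 104.5, and Gdnf itself was an outlying gene in the other direction (12.0 and 11.1 against 3.53 to 9.84). The value for Ret under TM was -2.79 ± 0.23 (adjusted p = 5.63e-08, limma). Itih5, Acp5, Alkal1 and Traf1 also had differences of -2.41 to -2.86, on 4 to 10 reads in all in the 129 controls. Pnp2, which had 0 and 0.246 scaled reads against 0.405 to 8.09, and Hist2h2ac rested on 3 and 2 reads, so no fold is given for them.

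A few genes of the ER stress response were outlying, in both directions. Of 34 genes of the ER stress response, Asns, Trib3 and Chac1 were outlying and lower and Derl3 higher, with a median of -0.08 over the list. Asns, asparagine synthetase, had 92.3 and 84.6 scaled reads against 113.1 to 208.7, Trib3, a pseudokinase, 12.6 and 11.3 against 13.8 to 56.6, and Chac1, which degrades glutathione, 14.9 and 13.8 against 16.9 to 48.9. After TM none of these 3 passed the test, with differences of -0.39 (adjusted p = 0.0311, limma), -0.20 (adjusted p = 0.293) and -0.23 (adjusted p = 0.199). Cth, which makes cysteine from cystathionine, stayed apart from all others in TM libraries, at 20.8, 19.2 and 18.9 against 24.98 to 86.4 (-1.10 ± 0.11, adjusted p = 1.17e-06, limma). Derl3, of the degradation machinery of the ER, had 1.15 and 1.15 in the 129 controls against 0 to 0.861, and with TM it had 5.95, 11.8 and 9.13 against 6.30 to 17.8 (-0.36 ± 0.22, adjusted p = 0.26, limma).

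Smaller differences covered genes of cell division and of fat cells. Of 27 genes of replication and mitosis, Mcm6, Cdc20, Rrm2 and Ccna2 were outlying and lower and 0 higher, and the median was -0.30 in controls and -0.23 in TM libraries. Mcm6, of the replicative helicase, had 64.6 and 59.1 scaled reads against 72.0 to 159.7 and was called lower with TM (-0.64 ± 0.10, adjusted p = 8.84e-05, limma). Of 5 adipocyte markers, the regulators Pparg and Cebpa were outlying, at -0.82 and -0.93. Both were called lower with TM, by -0.79 (adjusted p = 0.00201, limma) and -0.93 (adjusted p = 0.00196, limma). Dlk1, an imprinted gene that holds back fat cell differentiation, was the 1 outlying gene of 20 imprinted genes, at 29.7 and 19.7 against 31.0 to 165.5. It was lower by 1.70 ± 0.11 on the log2 scale with TM (adjusted p = 3.03e-09, limma).

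Over all the outlying genes, the median control difference was 0.72 for the 457 higher genes, with a middle range of 0.44 to 1.23, and -0.76 for the 268 lower ones. At least 1.5 fold was reached by 275 and 171 of them, and at least 4 fold by 57 and 33. All 725 passed the filter on low values, and 718 were protein coding. With the 129 controls set aside, 453 of the 457 higher genes and all 268 lower genes passed that filter. Just inside the rule were Stk36, Tecpr1 and Wwox (higher) and Mitf, Dram1 and Nsg1 (lower), and just outside it 5031439G07Rik, Tex2, Git2, Rpl30-ps8, Irf2 and Arpc5l. For Tecpr1, 129 had 46.44 and 46.92 scaled reads and the nearest other control 46.41, whereas for Tex2 the values were 31.06, 30.95 and 30.97. In the limma test of the same contrast over all genes, 3.36% of 12547 genes were called higher and 2.78% lower, and 211 of the 457 and 141 of the 268 were among them, which is the same measurement as the rule. The strain with the nearest mean was most often NZO (129 cases) or NOD (93) for the higher genes, and NOD (67) or NZO (62) for the lower genes.

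**Figure D3:**
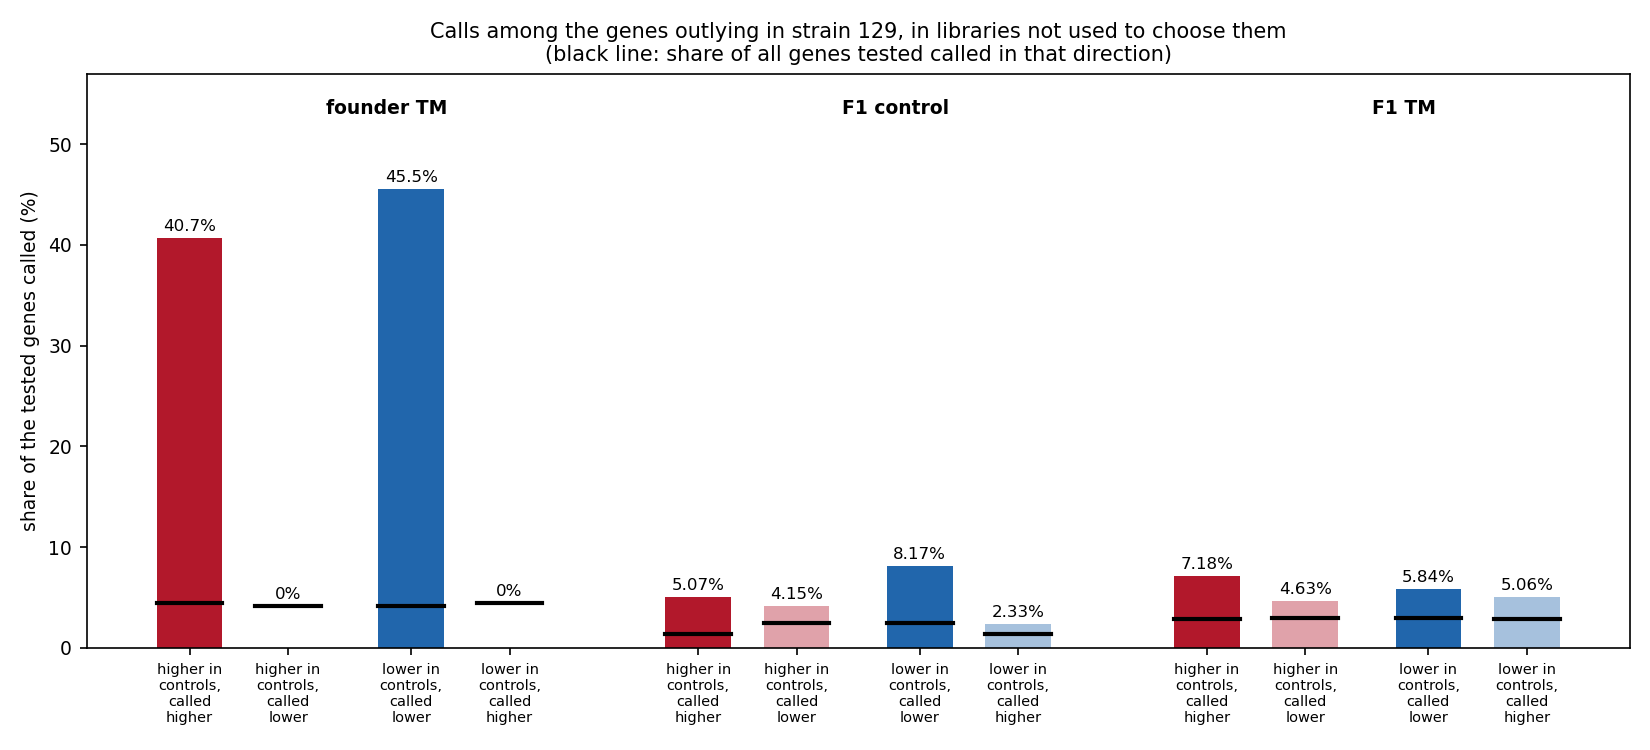
Percent of the genes outlying in strain 129 that were called by limma in the same or the opposite direction in founder TM libraries, F1 controls and F1 TM libraries, for higher and lower genes. The black line on each bar is the share of all genes tested that was called in that direction. In founder TM libraries, 40.7% and 45.5% were called the same way, far above the line, and in the F1 libraries the bars lie between 2.33% and 8.17%.

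The TM libraries of the founders asked whether these differences recurred in other cultures of the same stocks and under ER stress. Over all genes, 4.45% of 12551 were called higher in 129 and 4.15% lower. Of the outlying genes, 186 of the 457 higher ones (40.7%) and 122 of the 268 lower ones (45.5%) were called in the direction they had in controls, and 0 were called in the opposite one. The same sign was found for 97.6% and 97.8%, and the medians were 0.57 and -0.67 against 0.01 over all genes. In 102 and 72 of them the 129 TM libraries again lay outside all others, against 1.17% and 1.04% of all genes. Calls were more frequent where the control difference was larger: of genes at or above 4 fold in controls, 54 of 57 higher and 30 of 33 lower ones were called, and below 1.5 fold 7 of 182 and 11 of 97. Calls held with each of the 7 other strains left out in turn for 144 of the 186 and 99 of the 122.

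**Figure D4:**
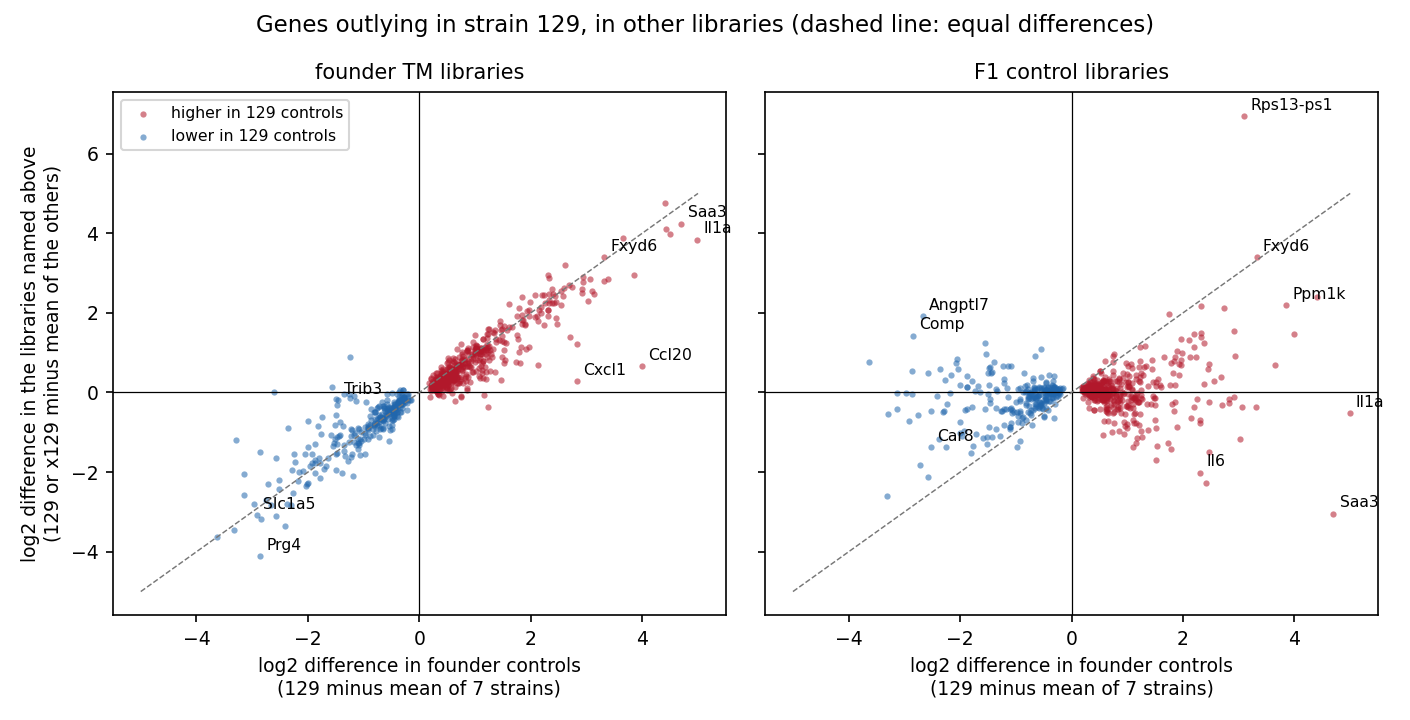
Log2 difference of strain 129 from the other strains in founder controls (x axis) against its difference in founder TM libraries (left panel, y axis) and that of x129 from the other crosses in F1 controls (right panel, y axis), with a point for each gene outlying in strain 129. The dashed line marks equal differences, and the points follow it in the left panel and spread around 0 in the right one, with medians of 0.05 for the higher and -0.05 for the lower genes.

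The F1 crosses asked whether the differences recurred in other embryos that carry 1 copy of the 129 genome beside that of B6. In F1 controls, 434 of the higher and 257 of the lower genes could be tested, and 23 and 11 were not listed in the F1 tables. Over all genes, 1.37% were called higher in x129 and 2.52% lower. Of the higher genes, 22 (5.07%) were called higher and 18 (4.15%) lower, and of the lower genes 21 (8.17%) were called lower and 6 (2.33%) higher. The medians were 0.05 and -0.05, near the 0.01 of all genes, and 56.5% and 58.4% kept their sign. Among the higher genes, all x129 controls lay above the other crosses for 18 and below them for 11, and among the lower genes they lay below for 23 and above for 2. Over all genes 1.39% lay above and 2.36% below. In F1 TM libraries 7.18% of the higher and 5.84% of the lower genes were called the same way, where 2.86% and 2.98% of all genes were called, and 4.63% and 5.06% were called the opposite way. There x129 lay apart from the other crosses in the direction of strain 129 for 20 higher and 12 lower genes and in the opposite one for 6 and 2, while 1.93% of all genes lay above and 1.6% below. Without xNZO control replicate 3, the genes called the same way in F1 controls numbered 50 in place of 43. Without xWSB they numbered 39, and 8 of the 18 opposite calls of higher genes and 3 of the 6 of lower genes were kept. In F1 TM libraries without xWSB, 38 genes were called the same way in place of 46, and 6 of 20 and 6 of 13 opposite calls were kept.

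**Figure D5:**
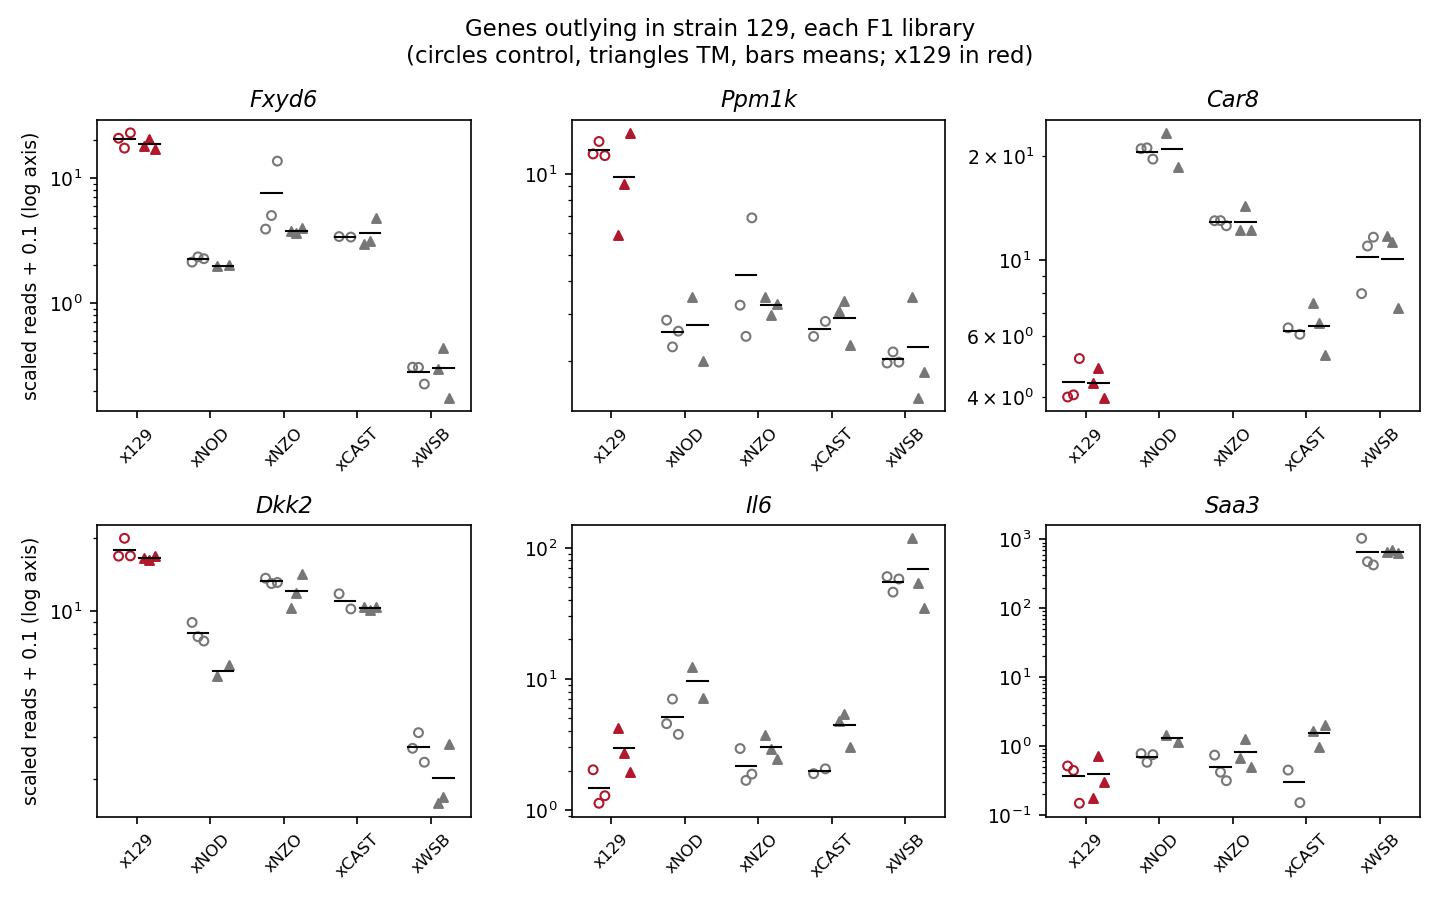
Scaled reads plus 0.1 (log axis) of Fxyd6, Ppm1k, Car8, Dkk2, Il6 and Saa3 in every F1 library, by cross, with circles for controls, triangles for TM libraries, bars for means and x129 in red. In controls, x129 lies above all other crosses for Fxyd6, Ppm1k and Dkk2 and below them for Car8, while for Il6 and Saa3 it lies low and xWSB stands high.

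A set of genes had the same direction in x129 as in strain 129. Fxyd6 had 20.6, 17.2 and 22.8 scaled reads in the x129 controls, and the other 11 controls ran from 0.125 to 13.5 with a median of 2.24. The highest of these was xNZO control replicate 3. The difference was 3.40 ± 0.28 (log2, SE; adjusted p = 9.53e-06, limma), between 2.47 and 3.98 with each other cross left out, and 3.47 ± 0.23 in the F1 TM libraries (adjusted p = 3.57e-07, limma). Ppm1k had 11.8, 13.1 and 11.6 against 1.87 to 6.76, also without overlap, with a difference of 2.19 ± 0.23 (adjusted p = 5.33e-05, limma). Fam124a had 17.4, 19.9 and 17.4 against 1.81 to 7.18 (2.17 ± 0.28, adjusted p = 0.000277, limma). The calls of Fam124a, Iqgap2, a scaffold protein of the cytoskeleton, Mrgprf, Samd5, Uck2, which salvages uridine and cytidine, Dynap and Ivl held with each cross left out, and those of Fam124a, Iqgap2, Ivl, Mrgprf, Samd5 and Uck2 also did so in F1 TM libraries. Phyhip had 2.66, 2.59 and 3.03 in the x129 controls and 0.0791 to 1.00 in the others but for xNZO control replicate 3, at 50.8, and its difference of 2.41 ± 1.18 did not pass (adjusted p = 0.295, limma), while in F1 TM libraries it was 3.93 ± 0.41 (adjusted p = 2.53e-05, limma).

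On the lower side, Car8, a protein related to carbonic anhydrases (chr4:8143362-8239041), had 1.15 and 1.31 scaled reads in the 129 controls against 1.64 to 20.8. In the x129 controls it had 3.90, 3.96 and 5.07 against 5.98 to 21.0, and no other control was as low (-1.37 ± 0.12, adjusted p = 1.36e-05, limma). Pxylp1, a phosphatase of proteoglycan synthesis, and Olfml2b, a secreted matrix protein, were lower in x129 controls by 1.10 ± 0.10 (adjusted p = 1.59e-05, limma) and 0.86 ± 0.09 (adjusted p = 4.69e-05, limma) on the log2 scale, both without overlap. Ret was lower by 1.18 ± 0.14 (adjusted p = 0.00013, limma), although its 8.67, 7.43 and 6.68 lay within the range of the others, 5.54 to 46.2. The calls of Car8, Pxylp1, Olfml2b, Ret, Dhrs3, a retinaldehyde reductase, Pcsk6, a proprotein convertase, Fzd1, a WNT receptor, Alkal1, Cnksr3 and Hist2h2ac held with each cross left out. Slc1a5, Kazald1 and Itga11 had differences of -0.72 (adjusted p = 0.156), -0.42 (adjusted p = 0.414) and -0.73 (adjusted p = 0.000829, limma) in F1 controls, and the call of Itga11 was lost without xCAST or xWSB. In F1 TM libraries Slc1a5 and Kazald1 were called lower, at -0.61 (adjusted p = 0.00135, limma) and -0.89 (adjusted p = 0.00151, limma), and both calls were lost without xCAST.

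Of the 8 outlying cytokines and chemokines, only Ccl20 was called higher in x129. Il1a had 0.596, 0.391 and 0.474 scaled reads in the x129 controls against 0 to 52.6 in the others, a difference of -0.51 ± 0.31 (adjusted p = 0.429, limma). Saa3 had 0.413, 0.342 and 0.0474 against 0.0503 to 1037, and Il6 1.93, 1.03 and 1.19 against 1.58 to 60.1. In all 3 the highest values were those of xWSB, with means of 44.5 ± 7.09, 646 ± 339.4 and 54.6 ± 7.67 (SD, n = 3). Saa3 and Il6 were called lower in x129 with all crosses, at -3.04 (adjusted p = 0.000512, limma) and -2.01 (adjusted p = 9.53e-05, limma), and without xWSB the values were -0.44 (adjusted p = 0.68) and -0.94 (adjusted p = 0.0438). Ccl2 was called lower with and without xWSB, at -1.26 (adjusted p = 4.63e-05, limma) and -0.65 (adjusted p = 0.00452, limma). Ccl20 was higher in x129 controls, at 1.88, 1.56 and 2.09 against 0 to 16.1, by 1.46 ± 0.31 (adjusted p = 0.00929, limma), by 2.82 without xWSB, and by 0.64 (adjusted p = 0.252) without xCAST. Of 19 chemokines and cytokines tested in F1 controls, 3 were called higher in x129 and 5 lower, with a median of -0.51, where 1.37% and 2.52% of all genes were called. Of the 5 lower (Ccl8, Cxcl16, Il6, Ccl7 and Ccl2), the calls of Cxcl16, Il6 and Ccl7 were lost without xWSB, where Cxcl16 and Ccl7 both had -0.47.

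The matrix genes of joint and cartilage were not called lower in x129. Prg4 had 26.7, 22.5 and 20.1 scaled reads in x129 controls against 5.40 to 82.0, and Comp had 11.8, 11.2 and 10.7 against 0.125 to 20.5. Neither passed the test in F1 controls, with 0.53 ± 0.13 (adjusted p = 0.0234, limma) and 1.43 ± 0.35 (adjusted p = 0.0204, limma). In F1 TM libraries Comp was called higher in x129, and that call was lost without xWSB (0.65, adjusted p = 0.118, limma). Angptl7, a secreted protein related to angiopoietins, was lower in strain 129 at 1.09 and 1.23 against 2.61 to 59.99, and higher in x129 at 10.55, 10.5 and 9.77 against 0.104 to 12.3 (1.92 ± 0.26, adjusted p = 0.00034, limma, and 0.91 without xWSB, adjusted p = 0.00264). Nt5e had 10.4, 9.23 and 9.01 in x129 controls, within the range of the others. In F1 TM libraries Nt5e was called higher in x129, and without xWSB its difference was -0.29 (adjusted p = 0.174, limma). Shh, Sprr2b and Ncan were not listed in the F1 tables, and for Sox2 the difference was 1.50 ± 0.53 (adjusted p = 0.117, limma). Levels in the founder and F1 tables were scaled separately and are not compared.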

How the data were processed

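RNA-seq (TruSeq, single-end 100 base reads) of 68 libraries was used, 40 of founder strains and 28 of F1 crosses, grouped by genotype and treatment from the sample labels. The authors aligned reads with TopHat 1.4.1, allowing 3 mismatches, to strain-specific versions of GRCm38 (mm10), applied edgeR's TMM scaling, dropped samples that a principal components analysis placed away from their condition, and rescaled. Dropped samples are not analysed here, so the spread may be narrower than that of all cultures grown. The deposited values, named FPKM by the authors and treated as FPKM when the tests were designed, are a signal per gene: whole multiples of 1 step per library within 0.05 reads in 66 libraries, so TMM-scaled reads without division by length. Whether counting used strand is not given in the sources used here.

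Autosomal genes that reached 0.5 in 2 or more libraries were tested with limma 3.58.1 (R 4.3.3) on log2(value + 0.1), which understates changes of low genes. The contrast was 129 (x129) minus the unweighted mean of the other strains (crosses), with 1 shared spread, trended eBayes and two-sided tests. A call required a Benjamini-Hochberg adjusted p below 0.01 over all genes tested and at least 1.5 fold. An edgeR 4.0.16 quasi-likelihood test on recovered reads was an alternative. Scripts were tested on simulated data. Median depth was 14072068 reads in founder controls, 10453967 in founder TM, 15266698 in F1 control and 12351069 in F1 TM libraries. Named were the 15 largest and 15 smallest control differences at a level of at least 2, outlying genes on the lists, Casp4 and Disc1 (control difference -0.01), and the genes at the edge of the rule. Other genes were named after their values were seen, and 1 withheld gene is not reported here. The members and lists were chosen with earlier results of these data known. Promoters are RefSeq's, GRCm38.p6, and 333 of the 457 higher and 218 of the 268 lower genes matched by symbol. Coordinates are GRCm38.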

Additional observations from a re-analysis of the deposited data

Results flagged for a closer look

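Over all genes, every x129 control lay above the other crosses for 1.39% and below them for 2.36%. For 11 of the higher and 2 of the lower genes, the x129 controls lay apart on the side opposite to that of strain 129. These numbers are near or below the shares over all genes. Opposite limma calls were more frequent than over all genes. In F1 controls they made up 4.15% of the higher and 2.33% of the lower genes, where 2.52% and 1.37% of all genes were. In F1 TM libraries they made up 4.63% and 5.06%, where the shares over all genes were 2.98% and 2.86%. Without xWSB, 8 of the 18 and 3 of the 6 opposite calls in F1 controls were kept. The difference between the comparisons was not tested. For 4 of the genes that lay apart on the opposite side in F1 controls, Slc22a23, Procr, Foxf2 and Dkk2, the F1 TM libraries of x129 did so too. Their F1 control and F1 TM differences were both called. In F1 controls the log2 differences of the other higher genes were -1.26 for Ablim1, -1.11 for Ntn1, -1.0 for Gdnf, -0.76 for Gramd1b, -0.72 for Lgals9, -0.51 for Uaca, -0.43 for Ddr1 and -0.42 for Pla2g6, of which Ntn1, Gdnf and Lgals9 were called, and the call of Ntn1 was lost without xWSB. Gja1, connexin 43, lower in strain 129, had 1.09, or 0.64 without xWSB, and was called higher in both.

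Slc22a23, a member of the organic ion transporter family, had 21.9 and 21.2 scaled reads in the 129 controls against 3.14 to 18.0 elsewhere. In x129 controls it had 2.07, 3.37 and 2.28 against 3.94 to 13.4 in the other crosses, a log2 difference of -1.36 ± 0.26 (adjusted p = 0.00438, limma), or 0.0194 as adjusted p without xNOD.

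Procr, the endothelial protein C receptor, had 71.5 and 66.8 scaled reads in the 129 controls against 21.5 to 55.6, and 23.7, 23.8 and 24.99 in x129 controls against 25.9 to 65.1 (-0.77 ± 0.09, adjusted p = 0.000116, limma). Foxf2, a forkhead factor of mesenchyme, had 11.2 and 10.9 against 4.25 to 10.2 in founders, and 4.59, 6.16 and 4.88 against 6.59 to 9.80 in crosses (-0.72 ± 0.14, adjusted p = 0.00507, limma). Its adjusted p was 0.0107 without xCAST and 0.0113 without xWSB.

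Dkk2, a secreted regulator of WNT signalling, went the other way. It had 5.28 and 4.75 scaled reads in the 129 controls against 6.46 to 32.5 elsewhere, and 16.8, 19.9 and 16.8 in x129 controls against 2.26 to 13.6 in the other crosses (1.25 ± 0.11, adjusted p = 1.32e-05, limma). With each cross left out its difference was 0.76 to 1.53.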

How the results depend on the processing

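The number of outlying genes, 725, was 1453 when 129 was set against the classical strains alone, 446 with at least 1.5 fold required, and 731 to 1349 with 1 control left out. The highest values, 1349 and 1311, came without 129 control replicate 2 and 3, which loosens the rule, and all 725 were kept in both. Another scaling gave 727, of which 701 were shared. The limma contrast over all control genes called 771, against 432 with classical strains alone, 1760 at an adjusted p below 0.05 with no fold, and 260 (without 129 control replicate 3) to 991 with 1 library left out, 329 without 129 control replicate 2. The counts of outlying genes called the same way were 308 in founder TM, 43 in F1 control and 46 in F1 TM libraries. At an adjusted p below 0.05 with no fold they were 469, 72 and 95, and with 1 library left out 245 to 329, 32 to 50 and 32 to 51. Replicate numbers did not pair the samples (same-numbered founder controls correlated at -0.14 to 0.48, above 0.1 in 17 of 49 pairs). With a replicate block the counts were 869, 311, 42 and 52. Of the named genes' values under other pseudocounts, scalings and the block, 754 kept their side of the threshold, 5 moved past it, 3 fell short and 0 reversed. The 3 were Ccl20 in F1 controls with a pseudocount of 1 (0.37) or the block (1.43) and Alkal1 in F1 TM libraries with a pseudocount of 1 (-1.15). Depth limits the genes with few reads, such as Pnp2 and Hist2h2ac.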

Other observations

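Some genes of blood coagulation, chosen after their values were seen, were outlying in either direction. F3, tissue factor, which starts coagulation, had 840.8 and 845.1 scaled reads in the 129 controls against 190.3 to 440.4 elsewhere, and 1103, 1013 and 860.8 in 129 TM libraries against 200.5 to 725.5 (1.41 ± 0.11, adjusted p = 3.05e-08, limma). Thbd, thrombomodulin, had 358.4 and 363.4 against 151.5 to 337.3, with 0.12 ± 0.11 in TM libraries (adjusted p = 0.457, limma). In F1 controls both were called lower in x129, F3 by -0.70 ± 0.07 (adjusted p = 2.47e-05, limma) and Thbd by -1.08 ± 0.11 (adjusted p = 4.63e-05, limma), and the call of F3 was lost without xWSB (-0.33). F5, coagulation factor V, was outlying and lower, at 1.32 and 1.06 scaled reads against 1.39 to 6.55, and lower in 129 TM libraries (-1.95 ± 0.34, adjusted p = 0.000385, limma). In F1 TM libraries F5 was called higher in x129. That call was lost without xNOD (0.81, adjusted p = 0.019, limma) or xWSB (0.56, adjusted p = 0.0737, limma).

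Of the higher genes, 26% had another higher gene within 250 kb, where 21.8% of the other genes had one, and for the lower genes the shares were 13.1% and 12.6%. Runs of at least 3 neighbouring outlying genes included Ddr1, Ier3, H2-T22 and Gm7030 at chr17:35681567-36129425, all higher, and Asns, C1galt1, Col28a1 and Mios at chr6:7675169-8236274, all lower. Rps13-ps1, a processed pseudogene, had 2.87 and 1.72 scaled reads in the 129 controls against 0 to 0.932, and 20.6, 17.7 and 26.4 in x129 controls against 0 to 0.18, with a log2 difference of 6.95 ± 0.40 there (adjusted p = 3.56e-07, limma). Sstr2, a somatostatin receptor, was the 1 outlying gene listed at 0 in both 129 controls, with 0.205 to 1.01 elsewhere.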
